A study of Mus musculus with 12 samples.

Results

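Mitosis in these cells was followed through 60 genes whose products act in G2 phase, on the spindle and at the kinetochore. The 60 genes were picked by symbol for what their products do, in a list drawn up with earlier results of these data known, and the rule that defines them uses no measured value. They are 60 of the 54532 genes listed in each library, and all 60 reached a mean of 1 FPKM over the 12 libraries and were therefore among the 11550 genes tested. FPKM, the unit of every level given here, scales the reads of a gene by its length and by the size of the library. The question put to the 60 genes was whether their levels differ between the conditions as those of the genes of S phase do. All libraries were of a single time, so which of the lists moves first cannot be seen.

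CD8+ T cells, the killer T cells of the immune system, were purified on magnetic beads from spleen and lymph node of C57BL/6 mice (wild type per the labels) and activated in culture. They then received an Accell siRNA, either a non-targeting control (siNTC) or an siRNA to *Creb1* (siCreb1), the gene of the cAMP-responsive transcription factor CREB. Cells of both kinds were kept for 24 h with DMSO or with trans-vaccenic acid (TVA), a long-chain trans fatty acid of ruminant milk and meat. The 4 groups, called siNTC, siNTC plus TVA, siCreb1 and siCreb1 plus TVA, had 3 libraries each and shared the activation and the siRNA delivery, so neither resting nor untransfected cells were among them. The labels do not say whether the 3 libraries of a group came from separate animals or cultures, and the p-values therefore measure only the spread between these libraries. No source used here describes a sort by cell cycle phase, and in bulk RNA a smaller share of cells in G2 and mitosis and less of these RNAs per cell cannot be told apart.

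As background, the kinase CDK1 with cyclin A and cyclin B drives a cell into mitosis, kinetochores tie the chromosomes to the spindle, and the spindle assembly checkpoint holds back the anaphase-promoting complex (APC/C) until all chromosomes are attached. Most of the genes concerned are silent in early G1, are transcribed after the S phase genes and peak in G2 and mitosis. Their promoters are known for the cell cycle genes homology region (CHR) that the MuvB complex binds, with B-MYB and FOXM1 as its partners in activation, together with CCAAT boxes bound by NF-Y, whereas S phase genes are known for E2F sites. Activated CD8+ T cells divide rapidly, so both sets of genes are high in them.

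Promoters of the mitotic genes are shown first, because the letters that they share played no part in choosing the genes. RefSeq promoters of build GRCm38.p6, each running from 250 bases before to 50 bases after a transcription start, were found for 51 of the 60 genes, those of *Foxm1*, *Ccna2*, *Cdc25c*, *Aurkb*, *Incenp*, *Spc24*, *Kif20a*, *Tpx2* and *Smc4* being missing from the table. Printed below are 120 bases, 100 before and 20 after the start, for *Cdk1*, *Ccnb2*, *Cdc20*, *Ube2c*, *Kif11* and *Top2a* as examples with CHR letters, for *Cenpe* as an example with a full cAMP response element (CRE, the CREB site), and for the S phase gene *Mcm6* as the example with E2F letters. Capitals mark the CHR letters TTTGAA, the NF-Y box with the letters CCAAT, the full CRE with TGACGTCA, and E2F letters on either strand. E2F letters were TTTGGCGC, TTTCCCGC, TTTCGCGC or TTTGCCGC.
Cdk1, chr10:69352893-69353012, minus strand: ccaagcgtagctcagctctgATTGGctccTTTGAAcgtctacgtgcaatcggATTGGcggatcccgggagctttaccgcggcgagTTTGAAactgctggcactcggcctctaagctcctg
Ccnb2, chr9:70421535-70421654, minus strand: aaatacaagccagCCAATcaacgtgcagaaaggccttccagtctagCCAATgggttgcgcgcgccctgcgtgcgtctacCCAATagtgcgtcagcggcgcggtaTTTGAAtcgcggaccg
Cdc20, chr4:118437324-118437443, minus strand: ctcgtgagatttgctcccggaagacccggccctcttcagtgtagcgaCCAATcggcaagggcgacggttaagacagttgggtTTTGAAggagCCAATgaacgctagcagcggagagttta
Ube2c, chr2:164769829-164769948, plus strand: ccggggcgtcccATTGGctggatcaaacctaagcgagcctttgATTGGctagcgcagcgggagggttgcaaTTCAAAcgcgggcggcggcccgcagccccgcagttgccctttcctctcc
Kif11, chr19:37376282-37376401, plus strand: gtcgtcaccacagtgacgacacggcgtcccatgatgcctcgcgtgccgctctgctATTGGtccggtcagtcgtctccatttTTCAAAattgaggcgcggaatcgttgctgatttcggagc
Top2a, chr11:99024170-99024289, minus strand: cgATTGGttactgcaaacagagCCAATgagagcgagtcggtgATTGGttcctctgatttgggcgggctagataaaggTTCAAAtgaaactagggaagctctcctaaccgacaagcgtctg
Cenpe, chr3:135212463-135212582, plus strand: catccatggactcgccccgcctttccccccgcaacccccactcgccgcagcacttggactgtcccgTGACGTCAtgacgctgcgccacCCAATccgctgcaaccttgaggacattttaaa
Mcm6, chr1:128359686-128359805, minus strand: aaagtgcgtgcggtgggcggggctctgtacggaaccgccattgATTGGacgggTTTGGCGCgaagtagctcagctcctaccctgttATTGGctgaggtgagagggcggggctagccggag

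CHR letters stood in 35 of the 51 mitotic promoters (68.6%), in 4 of 41 promoters of S phase genes (9.76%) and in 12.2% of the 7998 promoters of genes tested. Over all 27025 promoters, 1 per gene, the share was 18.1%. CCAAT boxes were present in 74.5% of the mitotic promoters, 61.0% of the S phase promoters and 39.7% of those of genes tested (37.9% of all promoters). CHR letters and a CCAAT box occurred together in 60.8% of the mitotic promoters, 7.32% of the S phase promoters and 5.26% of those of genes tested (7.07% of all promoters). E2F letters went the other way between the 2 cell cycle lists, with 9.80% of mitotic and 36.6% of S phase promoters against 4.63% of those of genes tested and 2.32% of all promoters. The core letters TGACG of the CRE, which each full CRE also contains, were found in 33.3% of the mitotic promoters, close to the 34.7% of promoters of genes tested (S phase 39.0%, all promoters 21.0%). Full CREs were in 4 of the 51 (7.84%), those of *Ndc80*, *Cenpe*, *Cenpw* and *Ncaph*, against 4.88% for S phase genes, 3.50% for genes tested and 1.86% for all promoters. All letters were searched on both strands, and a match is a description of the window, not evidence of binding.

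**Figure D1:**
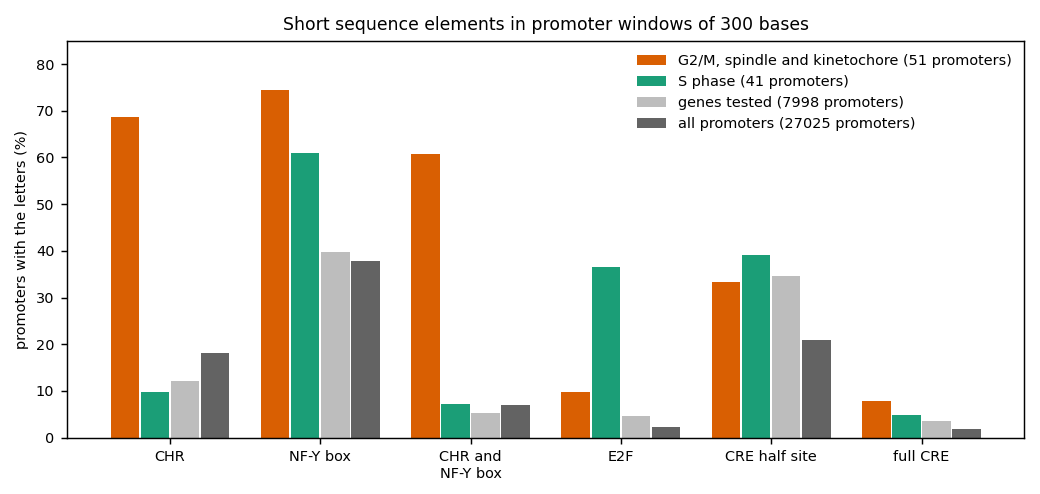
Share of RefSeq promoters (%), each of 300 bases, that hold the letters of 5 short elements on either strand, or of CHR and NF-Y (CCAAT) box together. Bars start at 0, 1 bar for each of the 51 mitotic, 41 S phase, 7998 tested and 27025 total promoters, and the CHR bars separate the mitotic genes (68.6%) from the S phase genes (9.76%).

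Between 16660234 and 24602484 reads per library were recovered from the FPKM values, and the 60 genes had from 52 reads (*Cenpp*, the lowest library) upwards. Depth went with the siRNA, at 16660234 to 20758033 reads in the 6 libraries with siNTC and 20760297 to 24602484 in the 6 with siCreb1. Genes above 0 separated likewise, at 19456 to 20008 and 20173 to 20993. The part of depth in the knockdown comparisons was not tested. *Creb1* itself, at chr1:64532645-64604548 of GRCm38, lay between 10.3 and 12.4 FPKM in the 6 libraries with siNTC and between 1.17 and 1.81 FPKM in the 6 with siCreb1, so the knockdown left part of the transcript. All 10 CD8+ T cell markers reached a mean of 1 FPKM, and their summed level was 2955 to 2967 FPKM in siNTC, 2908 to 2942 in siNTC plus TVA, 2808 to 2810 in siCreb1 and 2793 to 2818 in siCreb1 plus TVA. Markers of other cells summed to 5.37 to 7.22 FPKM (CD4 T cells, 4 genes), 9.48 to 14.2 (B cells, 5 genes), 5.51 to 10.3 (myeloid cells, 8 genes), 32.8 to 36.8 (NK cells, 4 genes) and 0.382 to 1.51 (erythroid cells, 4 genes, 1 of them at 0 in all libraries). Most of the NK cell sum was *Eomes* alone, at 27.1 to 30.6 FPKM, and most of the B cell sum *Cd79b*, at 7.77 to 12.3. The other NK cell markers *Ncr1*, *Klrb1c* and *Klra8* had means of 1.38, 3.14 and 1.12 FPKM. Most of the myeloid sum was *Lyz2*, at 4.61 to 8.20 FPKM, the only myeloid marker with a mean of at least 1 FPKM. The myeloid sum was highest in siCreb1 plus TVA (8.83 to 10.3 FPKM, against 5.51 to 7.65 in the other groups), and its part in the results was not tested.

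TVA raised the mitotic genes in siNTC cells, and in siCreb1 cells they stood at an intermediate level with or without TVA. Their mean log2(FPKM + 1) over the 60 genes was 3.47 ± 0.0028 (SD, n = 3) in siNTC, 3.89 ± 0.0072 in siNTC plus TVA, 3.72 ± 0.011 in siCreb1 and 3.75 ± 0.0078 in siCreb1 plus TVA. Summed over the 60 genes the level was 1003 ± 4.06, 1282 ± 9.04, 1134 ± 0.787 and 1154 ± 3.73 FPKM (SD, n = 3) in the same order. In no pair of groups did the library means overlap. By group means, 54 of the 60 genes were lowest in siNTC, 54 were highest in siNTC plus TVA and 50 were both. The same counts over all genes tested were not taken. All 3 siNTC plus TVA libraries lay above the other 9 for 33 genes (3.45% of all genes tested did so), and all 3 siNTC libraries lay below the other 9 for 48 (4.77% of all genes tested).

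**Figure D2:**
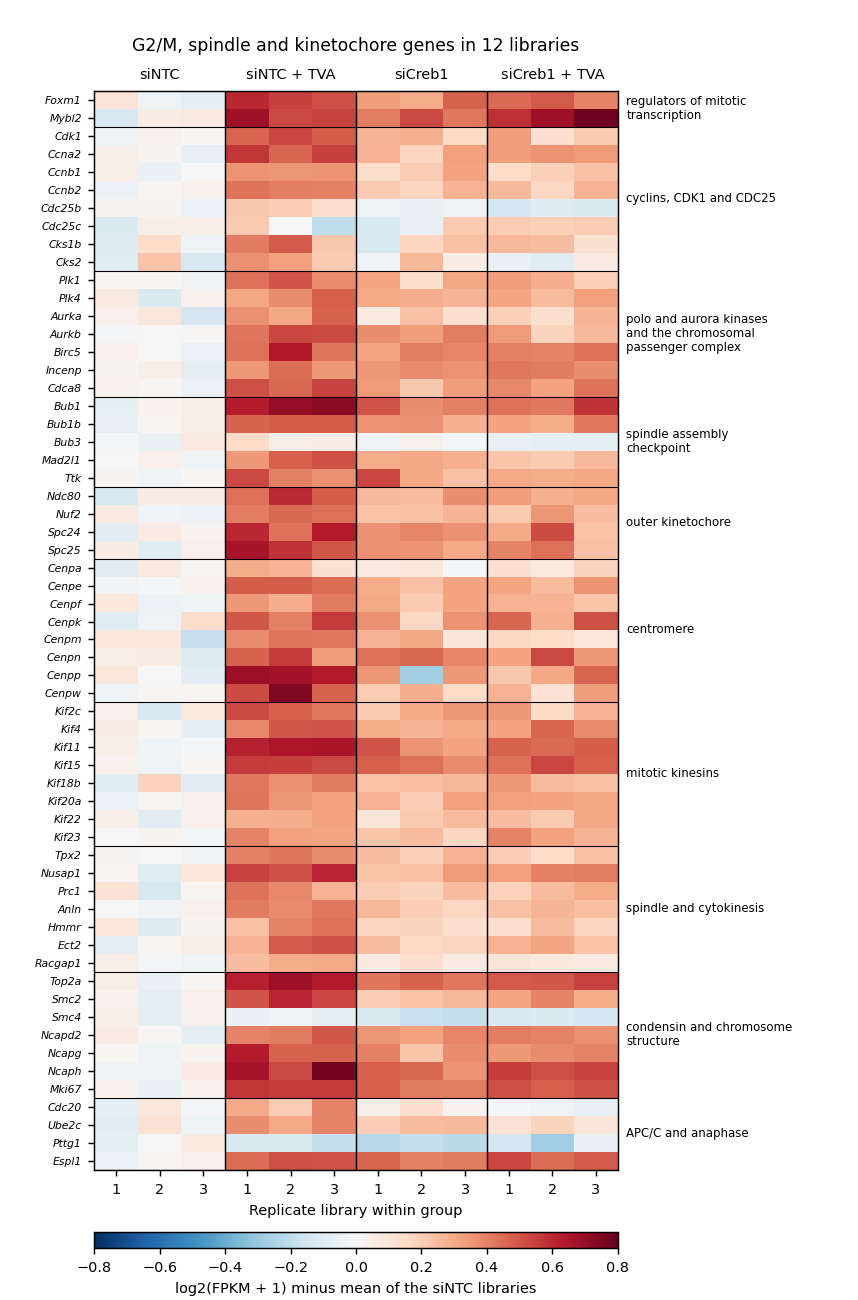
Level of each of the 60 mitotic genes in each of the 12 libraries, as log2(FPKM + 1) minus the mean of the 3 siNTC libraries, with genes grouped by role. Red is above and blue below siNTC, and the siNTC plus TVA columns are the reddest for most genes, with *Smc4* and *Pttg1* blue in most libraries outside siNTC.

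TVA against DMSO in siNTC cells gave 54 of 60 genes higher and 0 lower at an adjusted p under 0.05 (limma, Benjamini-Hochberg over 11550 genes), where 4.49% of all genes tested were higher and 2.88% lower. At an unadjusted p under 0.05 the counts were 57 higher and 1 lower (10.5% of all genes tested in each direction). Limma-voom on the recovered reads called 56 higher and 0 lower (5.13% and 3.94% of all genes tested). The median log2 fold change was 0.44 for the 60 genes and −0.0056 for all genes tested. Every siNTC plus TVA library exceeded every siNTC library for 55 of the 60 genes and the reverse held for 1, while 11.7% of all genes tested were without overlap in this comparison in the upward direction. Folds of the group means ran up to 2.03-fold (*Cenpp*), with 1.69-fold for *Bub1* and 1.58-fold for *Kif11*.

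In siCreb1 cells the same addition of TVA gave 0 higher and 0 lower calls, where 0.121% of all genes tested were higher and 0.416% lower. At an unadjusted p under 0.05, 6 of the 60 genes were higher and 2 lower, against 4.19% and 5.39% of all genes tested. Limma-voom also called 0 in either direction, against 0.416% higher and 0.978% lower. The median log2 fold change was 0.038, with 43 genes above 0 and 17 below. Of the 11550 genes tested, 5685 were above 0 and 5864 below. The siCreb1 and siCreb1 plus TVA libraries were separate for 13 genes, 8 higher and 5 lower with TVA, where 17.1% of all genes tested were separate in either direction. The difference between the TVA effects, tested as the interaction in the same fit, was negative at an adjusted p under 0.05 for 42 of the 60 genes and positive for 0, where 1.78% of all genes tested were negative and 0.459% positive. Its median was −0.43, 55 genes were negative and 1 positive at an unadjusted p under 0.05 (8.2% and 6.15% of all genes tested). Limma-voom called 50 negative and 0 positive (2.81% and 1.07%).

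Knockdown of *Creb1* alone also raised most of the mitotic genes. Of the 60 genes, 42 were higher and 2 lower in siCreb1 than in siNTC cells without TVA, where 6.52% of all genes tested were higher and 7.21% lower, and the median log2 fold change was 0.26. With TVA in both groups, 0 were higher and 19 lower in siCreb1 than in siNTC cells, where 4.64% of all genes tested were higher and 5.51% lower, with a median of −0.16. At an unadjusted p under 0.05 those last counts were 0 and 36 (11.6% higher and 14.6% lower of all genes tested). Limma-voom called 0 higher and 28 lower (6.35% and 7.64%). The 19 lower calls moved with 1 library and with the scaling, being 8 without replicate 1 of siCreb1 plus TVA and 5 when FPKM was rescaled to TPM. On TPM 740 of all genes tested were called in this comparison, against 1172 on FPKM. The 4 comparisons share libraries (both TVA and knockdown effects use siNTC, for example), so their values are set side by side and not counted as separate evidence. The shares of all genes tested given above for each comparison also apply to the counts by role and by list below.

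**Figure D3:**
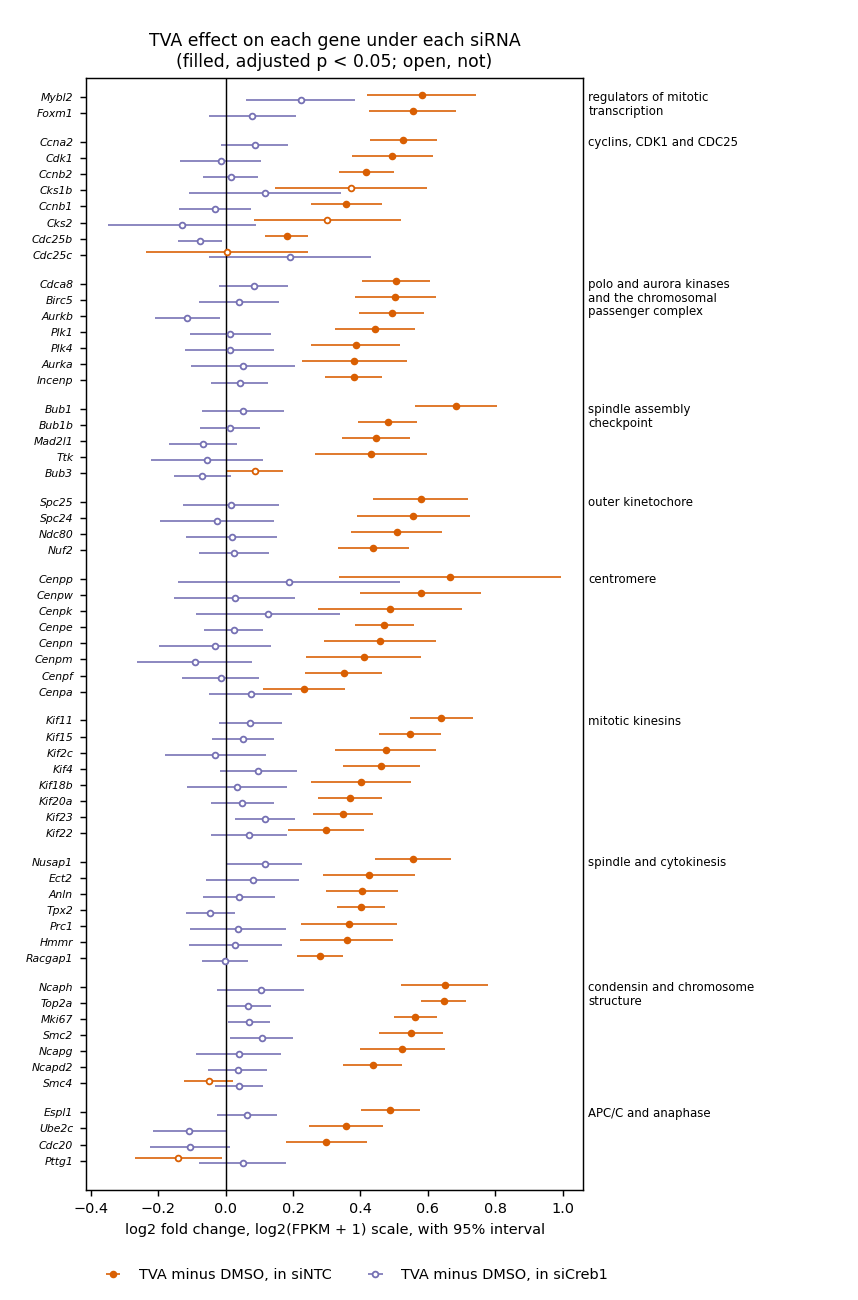
Log2 fold change of each gene with TVA against DMSO on the log2(FPKM + 1) scale, in siNTC cells (orange) and in siCreb1 cells (violet), with 95% intervals from limma. Filled points have an adjusted p under 0.05, which holds for 54 orange and 0 violet points, and genes are sorted within roles by the siNTC value.

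Among the regulators of mitotic transcription, *Foxm1*, the forkhead factor of G2 genes, was at 11.5, 10.2 and 9.97 FPKM in siNTC, 16.6, 15.8 and 15.5 in siNTC plus TVA, 13.5, 13.2 and 15.0 in siCreb1 and 14.8, 15.2 and 14.2 in siCreb1 plus TVA. *Mybl2*, which codes for B-MYB, was at 2.87, 3.41 and 3.45 FPKM in siNTC, 5.76, 5.11 and 5.15 in siNTC plus TVA, 4.63, 5.11 and 4.68 in siCreb1 and 5.34, 5.76 and 6.24 in siCreb1 plus TVA. Both had all siNTC libraries below the other 9, but *Mybl2* had its highest mean in siCreb1 plus TVA, where *Foxm1* had it in siNTC plus TVA. TVA changed *Foxm1* by 0.55 (standard error 0.058, adjusted p = 0.00022) and *Mybl2* by 0.58 (standard error 0.073, adjusted p = 0.000688) on the log2(FPKM + 1) scale in siNTC cells. In siCreb1 cells *Mybl2* had the largest TVA value of all 60 genes on this scale, at 0.22 (adjusted p = 0.332), and its interaction was −0.36 (adjusted p = 0.121), which did not pass, while that of *Foxm1* was −0.47 (adjusted p = 0.0134). *Mybl2* also had the largest rise of all 60 genes on this scale with knockdown alone, 0.45 (standard error 0.073, adjusted p = 0.00306).

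Among the cyclins and their kinase, *Cdk1* (mitotic kinase) was at 8.35, 8.87 and 8.7 FPKM in siNTC, 12.3, 12.9 and 12.5 in siNTC plus TVA, 10.6, 10.7 and 9.76 in siCreb1 and 11.2, 9.53 and 10.1 in siCreb1 plus TVA. *Ccna2* (cyclin A2) was at 22.1, 21.7 and 20.3 FPKM in siNTC, 32.2, 29.9 and 31.6 in siNTC plus TVA, 26.1, 24.2 and 27.1 in siCreb1 and 27.2, 27.7 and 27.4 in siCreb1 plus TVA. All siNTC plus TVA libraries stood above all others for both genes. *Ccnb1* (cyclin B1) was at 8.08, 7.43 and 7.71 FPKM in siNTC, 10.2, 10.2 and 10.2 in siNTC plus TVA, 8.64, 9.05 and 9.93 in siCreb1 and 8.69, 8.96 and 9.27 in siCreb1 plus TVA, and *Ccnb2* (cyclin B2) at 36.7, 38.2 and 38.7 FPKM in siNTC, 51.6, 50.6 and 50.4 in siNTC plus TVA, 43.9, 42.8 and 46.1 in siCreb1 and 45.6, 42.5 and 46.2 in siCreb1 plus TVA. Again the TVA libraries of siNTC cells were on top and the siCreb1 groups overlapped each other. The TVA effect in siNTC cells was 0.49 (standard error 0.054, adjusted p = 0.000283) for *Cdk1*, 0.53 (standard error 0.045, adjusted p = 5.61e-05) for *Ccna2*, 0.36 (standard error 0.048, adjusted p = 0.00114) for *Ccnb1* and 0.42 (standard error 0.037, adjusted p = 7.29e-05) for *Ccnb2*. In siCreb1 cells it was −0.015 (95% interval −0.13 to 0.11), 0.086 (95% interval −0.013 to 0.18), −0.032 (95% interval −0.14 to 0.074) and 0.015 (95% interval −0.067 to 0.10) in the same order, and the interaction passed for all 4 genes. Reads of *Ccna2* and *Exosc9*, which overlap on opposite strands, cannot be told apart if the counting ignored strand, and a processed pseudogene of *Ccnb2* was itself listed at 1.80 FPKM. The same limit of strand holds for other mitotic genes, among them *Prc1* (with *Rccd1*), *Ncapg* (*Lcorl*), *Cdca8* (*9930104L06Rik*) and *Kif4* (*Pdzd11*). Each of these partners had fewer reads than the mitotic gene.

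*Cdc25b*, a phosphatase that activates CDK1, behaved differently with knockdown. It was at 29.2, 29.1 and 27.7 FPKM in siNTC, 33.4, 33.02 and 31.5 in siNTC plus TVA, 27.8, 27.6 and 27.8 in siCreb1 and 25.9, 26.6 and 26.4 in siCreb1 plus TVA. The siNTC plus TVA libraries were above all others, siCreb1 overlapped with siNTC, and siCreb1 plus TVA was below every other library. TVA in siNTC cells raised it by 0.18 (standard error 0.029, adjusted p = 0.00358). With TVA present it was lower in siCreb1 than in siNTC cells, at −0.30 (standard error 0.029, adjusted p = 0.000437), among the 3 largest called falls of the 60 genes. *Cdc25c*, its relative, was at 3.23, 3.73 and 3.73 FPKM in siNTC, 4.27, 3.56 and 2.96 in siNTC plus TVA, 3.18, 3.37 and 4.26 in siCreb1 and 4.25, 4.2 and 4.25 in siCreb1 plus TVA, with siCreb1 plus TVA above all siNTC libraries but every other pair of groups overlapping. No comparison of *Cdc25c* passed. The CDK-binding subunits *Cks1b* and *Cks2* missed the threshold for TVA in siNTC cells, at 0.37 (adjusted p = 0.0529) and 0.30 (adjusted p = 0.104).

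All 7 genes of the polo and aurora kinases and the chromosomal passenger complex rose with TVA in siNTC cells, 6 rose with knockdown alone, and 5 had a called interaction. *Plk1*, the polo kinase of mitotic entry, was at 15.2, 15.1 and 14.7 FPKM in siNTC, 20.7, 21.7 and 19.8 in siNTC plus TVA, 18.9, 16.6 and 18.8 in siCreb1 and 19.1, 18.5 and 17.2 in siCreb1 plus TVA. *Aurka*, the spindle pole kinase, was at 7.1, 7.38 and 6.17 FPKM in siNTC, 9.13, 8.76 and 9.91 in siNTC plus TVA, 7.28, 8.27 and 7.61 in siCreb1 and 7.97, 7.61 and 8.51 in siCreb1 plus TVA. *Aurkb*, the kinase of the passenger complex at centromeres, was at 14.4, 14.6 and 14.7 FPKM in siNTC, 19.9, 21.5 and 21.3 in siNTC plus TVA, 19.1, 18.6 and 19.7 in siCreb1 and 18.7, 16.6 and 17.6 in siCreb1 plus TVA. In each of the 3 genes the siNTC plus TVA libraries were above all other libraries. *Birc5* (survivin, a passenger subunit) was at 15.4, 15.01 and 14.5 FPKM in siNTC, 20.6, 23.9 and 20.5 in siNTC plus TVA, 18.8, 20.2 and 19.96 in siCreb1 and 20.1, 19.98 and 20.7 in siCreb1 plus TVA, and its siNTC libraries were the lowest while those of siCreb1 with and without TVA overlapped. TVA changed the 4 genes by 0.44 (adjusted p = 0.000588), 0.38 (adjusted p = 0.00752), 0.49 (adjusted p = 7.15e-05) and 0.50 (adjusted p = 0.000247) in siNTC cells. For *Aurkb* the TVA value in siCreb1 cells was −0.11 (95% interval −0.21 to −0.017) and the interaction −0.61 (standard error 0.062, adjusted p = 0.00112), the second largest negative interaction among the 60 genes, whereas for *Aurka* neither the interaction, at −0.33 (adjusted p = 0.133), nor knockdown alone, at 0.15 (adjusted p = 0.202), passed. *Incenp* and *Cdca8*, the scaffold and borealin of the complex, rose by 0.38 (adjusted p = 0.000155) and 0.51 (adjusted p = 7.74e-05) with TVA in siNTC cells, and *Plk4*, the centriole kinase, by 0.39 (adjusted p = 0.00287).

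*Bub1*, of the spindle assembly checkpoint, had both the largest TVA effect in siNTC cells and the largest interaction among the 60 genes on the log2(FPKM + 1) scale. By the fold of group means *Cenpp* and *Cenpk* (1.74-fold) were above it for TVA in siNTC cells and *Cenpp* had the more unequal TVA folds between siRNAs. *Bub1*, a checkpoint kinase of the kinetochore, was at 6.44, 7.0 and 7.1 FPKM in siNTC, 11.1, 11.7 and 11.96 in siNTC plus TVA, 10.1, 9.16 and 9.37 in siCreb1 and 9.59, 9.5 and 10.7 in siCreb1 plus TVA. *Mad2l1*, the MAD2 inhibitor of APC/C, was at 5.99, 6.22 and 5.83 FPKM in siNTC, 7.9, 8.76 and 9.04 in siNTC plus TVA, 7.61, 7.69 and 7.56 in siCreb1 and 7.16, 7.11 and 7.4 in siCreb1 plus TVA. For both genes siNTC was lowest, siNTC plus TVA was highest, and no library of either group overlapped with another group. *Bub1* rose by 0.68 (standard error 0.055, adjusted p = 4.67e-05) with TVA in siNTC cells and had 0.052 (95% interval −0.070 to 0.17) with TVA in siCreb1 cells. The interaction was −0.63 (standard error 0.078, adjusted p = 0.00282), and *Bub1* was also 0.43 (adjusted p = 0.00103) higher with knockdown alone. *Bub1b* (BUBR1) and *Ttk* (MPS1) rose by 0.48 (adjusted p = 5.27e-05) and 0.43 (adjusted p = 0.00577) with TVA in siNTC cells. *Bub3*, the WD-repeat partner of BUB1 and BUBR1, was at 16.4, 15.97 and 17.5 FPKM in siNTC, 18.5, 17.3 and 17.4 in siNTC plus TVA, 16.3, 17.1 and 16.4 in siCreb1 and 15.9, 15.8 and 15.7 in siCreb1 plus TVA. Its siNTC libraries overlapped with those of siNTC plus TVA and of siCreb1, siCreb1 plus TVA stood below the rest, and of its comparisons only siCreb1 against siNTC with TVA passed, at −0.16 (adjusted p = 0.0281).

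Each of the 4 outer kinetochore genes of the NDC80 complex, which holds microtubules, rose with TVA in siNTC cells, rose with knockdown alone and had a negative interaction. *Ndc80* was at 4.62, 5.36 and 5.38 FPKM in siNTC, 7.3, 8.23 and 7.53 in siNTC plus TVA, 6.31, 6.24 and 6.9 in siCreb1 and 6.71, 6.45 and 6.56 in siCreb1 plus TVA, its siCreb1 groups lying between siNTC and siNTC plus TVA. *Spc24* was at 9.19, 10.3 and 10.1 FPKM in siNTC, 15.5, 13.6 and 15.8 in siNTC plus TVA, 13.01, 13.2 and 12.99 in siCreb1 and 12.4, 14.6 and 11.7 in siCreb1 plus TVA. The siNTC libraries were the lowest for both genes, and for *Spc24* 1 library of siCreb1 plus TVA reached into the range of siNTC plus TVA. TVA in siNTC cells gave 0.51 (adjusted p = 0.000524) for *Ndc80*, 0.44 (adjusted p = 0.000259) for *Nuf2*, 0.56 (adjusted p = 0.00124) for *Spc24* and 0.58 (adjusted p = 0.000289) for *Spc25*, and the interactions were −0.49 (adjusted p = 0.014), −0.41 (adjusted p = 0.00933), −0.58 (adjusted p = 0.0199) and −0.56 (adjusted p = 0.00899).

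Centromere genes all rose with TVA in siNTC cells (8 of 8), but knockdown alone raised only 3 of the 8. *Cenpa*, the centromeric histone H3 variant, was at 14.1, 15.8 and 15.1 FPKM in siNTC, 18.7, 18.3 and 16.4 in siNTC plus TVA, 15.8, 16.1 and 14.9 in siCreb1 and 16.5, 15.9 and 17.1 in siCreb1 plus TVA, with 1 siNTC plus TVA library inside the range of siCreb1 plus TVA. *Cenpe*, the centromere kinesin whose promoter holds the full CRE above, was at 5.92, 5.99 and 6.18 FPKM in siNTC, 8.82, 8.83 and 8.57 in siNTC plus TVA, 7.62, 7.25 and 7.79 in siCreb1 and 7.74, 7.35 and 8.01 in siCreb1 plus TVA. *Cenpf*, a kinetochore protein of G2, was at 4.78, 4.29 and 4.33 FPKM in siNTC, 5.94, 5.69 and 6.28 in siNTC plus TVA, 5.74, 5.31 and 5.82 in siCreb1 and 5.64, 5.64 and 5.39 in siCreb1 plus TVA. The siNTC libraries were the lowest for *Cenpe* and *Cenpf*, and siNTC plus TVA was above all others for *Cenpe*, while for *Cenpf* 2 siCreb1 libraries reached into its range. *Cenpa* had the smallest called rise of the 8, 0.23 (standard error 0.055, adjusted p = 0.0297), against 0.47 (adjusted p = 5.58e-05) for *Cenpe* and 0.35 (adjusted p = 0.00212) for *Cenpf*.

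*Cenpp* and *Cenpw*, subunits of the constitutive centromere network, were at low levels. *Cenpp* was at 1.45, 1.3 and 1.17 FPKM in siNTC, 2.7, 2.67 and 2.57 in siNTC plus TVA, 1.94, 0.908 and 1.92 in siCreb1 and 1.67, 1.85 and 2.17 in siCreb1 plus TVA. *Cenpw* was at 2.89, 2.99 and 3.0 FPKM in siNTC, 4.68, 5.64 and 4.48 in siNTC plus TVA, 3.57, 3.85 and 3.38 in siCreb1 and 3.8, 3.28 and 3.99 in siCreb1 plus TVA. All siNTC plus TVA libraries exceeded the other 9 for both genes, and 1 siCreb1 library of *Cenpp* fell below siNTC. *Cenpp* had a TVA effect of 0.66 (standard error 0.15, adjusted p = 0.0226) in siNTC cells and *Cenpw* one of 0.58 (standard error 0.081, adjusted p = 0.00142). *Cenpw* showed the largest called fall of the 60 genes in siCreb1 against siNTC with TVA, −0.34 (standard error 0.081, adjusted p = 0.0265). *Cenpk*, *Cenpm* and *Cenpn* rose by 0.49 (adjusted p = 0.0118), 0.41 (adjusted p = 0.00889) and 0.46 (adjusted p = 0.00407) with TVA in siNTC cells. *Cenpp* and *Cenpk* had the fewest reads of the 60 genes in their lowest library (52 and 100) and overlap *Ippk* and *Ppwd1* on the other strand, which had more reads than they did.

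All 8 mitotic kinesins rose with TVA in siNTC cells and all 8 with knockdown alone. *Kif11*, the Eg5 motor that pushes spindle poles apart, was at 25.6, 24.2 and 24.5 FPKM in siNTC, 38.5, 39.3 and 39.5 in siNTC plus TVA, 35.5, 32.1 and 31.3 in siCreb1 and 34.7, 34.3 and 35.1 in siCreb1 plus TVA. *Kif20a*, a motor of cytokinesis, was at 7.69, 8.03 and 8.21 FPKM in siNTC, 11.1, 10.5 and 10.2 in siNTC plus TVA, 9.9, 9.29 and 10.3 in siCreb1 and 10.3, 10.2 and 10.1 in siCreb1 plus TVA. The siNTC libraries of both genes were below all others, and siNTC plus TVA was above all others for *Kif11*, while for *Kif20a* libraries of both siCreb1 groups reached into its range. TVA in siNTC cells gave 0.64 (standard error 0.042, adjusted p = 1.3e-05) for *Kif11* and 0.37 (standard error 0.043, adjusted p = 0.00041) for *Kif20a*, and in siCreb1 cells 0.074 (95% interval −0.020 to 0.17) and 0.050 (95% interval −0.044 to 0.14). *Kif20a* overlaps *Cdc23* on the other strand, and that gene had more reads. The motors *Kif15*, *Kif2c*, *Kif4*, *Kif18b*, *Kif23* and *Kif22* rose by 0.30 (*Kif22*) to 0.55 (*Kif15*) with TVA in siNTC cells. Interactions of *Kif18b*, *Kif22* and *Kif23* did not pass, at −0.37 (adjusted p = 0.0821), −0.23 (adjusted p = 0.155) and −0.23 (adjusted p = 0.0688).

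**Figure D4:**
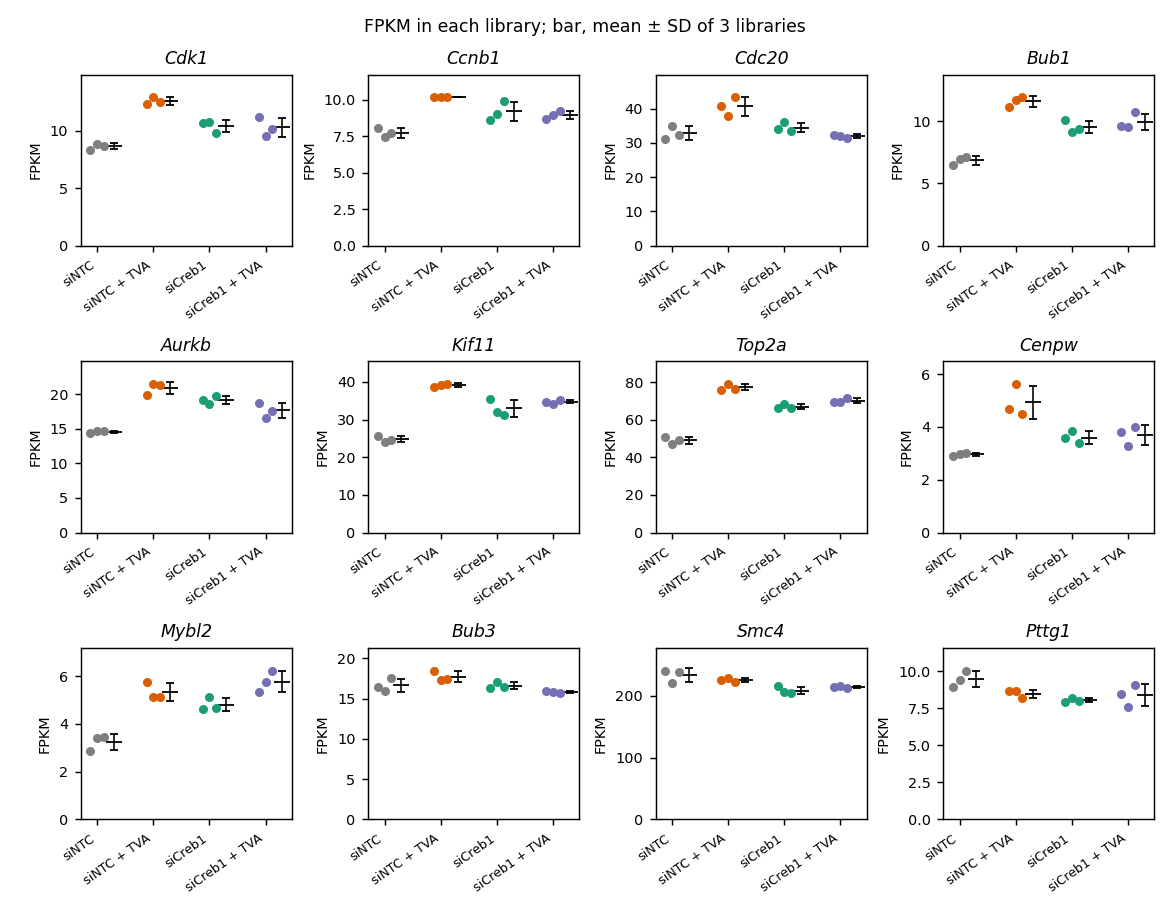
FPKM of 12 mitotic genes in each of the 12 libraries (points), with mean ± SD of 3 libraries beside them, on axes that start at 0. *Bub1*, *Kif11* and *Top2a* show siNTC lowest and siNTC plus TVA highest without overlap, *Mybl2* is highest in siCreb1 plus TVA, and *Bub3*, *Smc4* and *Pttg1* have no rise with TVA in siNTC cells that passed the test.

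Genes of the spindle and of cytokinesis rose with TVA in siNTC cells in 7 of 7 cases, and 3 of the 7 rose with knockdown alone. *Tpx2*, which activates aurora A on the spindle, was at 15.9, 15.6 and 15.4 FPKM in siNTC, 21.01, 21.3 and 20.6 in siNTC plus TVA, 18.7, 17.99 and 19.2 in siCreb1 and 18.1, 17.4 and 18.5 in siCreb1 plus TVA, with siNTC lowest and siNTC plus TVA highest. Its TVA effect was 0.40 (standard error 0.033, adjusted p = 4.67e-05) in siNTC cells and −0.046 (95% interval −0.12 to 0.027) in siCreb1 cells. *Nusap1* (spindle-associated) had the largest rise of the 7, 0.56 (adjusted p = 7.95e-05), and *Racgap1* (centralspindlin) the smallest, 0.28 (adjusted p = 0.000266). *Anln* (anillin), *Prc1* (midzone bundler), *Hmmr* and *Ect2* (RHOA exchange factor) lay between them. With knockdown alone *Prc1*, *Hmmr*, *Ect2* and *Racgap1* did not pass, at 0.21 (adjusted p = 0.0571), 0.16 (adjusted p = 0.125), 0.19 (adjusted p = 0.0629) and 0.089 (adjusted p = 0.08).

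Among genes of condensin and chromosome structure, *Top2a* (topoisomerase II alpha, which untangles sister DNA) was at 50.6, 47.2 and 49.4 FPKM in siNTC, 76.1, 79.3 and 76.7 in siNTC plus TVA, 66.4, 68.6 and 66.1 in siCreb1 and 69.5, 69.6 and 71.8 in siCreb1 plus TVA. *Mki67* (Ki-67, the coat of mitotic chromosomes) was at 30.3, 28.6 and 30.3 FPKM in siNTC, 44.6, 44.2 and 44.3 in siNTC plus TVA, 41.7, 39.9 and 39.7 in siCreb1 and 42.97, 41.8 and 42.8 in siCreb1 plus TVA. *Ncaph*, a condensin I subunit, was at 7.87, 7.86 and 8.49 FPKM in siNTC, 13.3, 12.1 and 14.4 in siNTC plus TVA, 11.6, 11.5 and 10.6 in siCreb1 and 12.3, 11.97 and 12.2 in siCreb1 plus TVA. In all 3 genes siNTC was below every other library, and for *Top2a* and *Mki67* siNTC plus TVA was above every other. TVA in siNTC cells gave 0.65 (standard error 0.030, adjusted p = 7.54e-07), 0.56 (standard error 0.029, adjusted p = 1.83e-06) and 0.65 (standard error 0.058, adjusted p = 7.55e-05) for *Top2a*, *Mki67* and *Ncaph*, and in siCreb1 cells 0.068 (95% interval 0.0016 to 0.13), 0.069 (95% interval 0.0058 to 0.13) and 0.10 (95% interval −0.025 to 0.23). Knockdown alone raised the same genes by 0.44, 0.43 and 0.43. The interaction of *Top2a*, −0.58 (standard error 0.042, adjusted p = 0.000122), had the smallest adjusted p of the 60 genes. *Smc2*, *Ncapd2* and *Ncapg*, further condensin subunits, rose by 0.55, 0.44 and 0.52 with TVA in siNTC cells.

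*Smc4*, which pairs with SMC2 in condensin, went against the others. It was at 241, 221 and 239 FPKM in siNTC, 225, 229 and 222 in siNTC plus TVA, 215, 206 and 204 in siCreb1 and 214, 216 and 212 in siCreb1 plus TVA, by far the highest level of the 60 genes per length. Its siNTC and siNTC plus TVA libraries overlapped, and all 6 siCreb1 libraries were below all 6 siNTC libraries. TVA gave −0.050 (95% interval −0.12 to 0.022) in siNTC cells, and knockdown alone changed it by −0.16 (standard error 0.033, adjusted p = 0.00917).

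In the anaphase group, *Cdc20*, the APC/C activator, was at 31.1, 34.9 and 32.4 FPKM in siNTC, 40.6, 37.8 and 43.4 in siNTC plus TVA, 33.9, 36.1 and 33.4 in siCreb1 and 32.4, 32.05 and 31.3 in siCreb1 plus TVA. *Ube2c*, the E2 enzyme of APC/C, was at 19.9, 23.02 and 20.7 FPKM in siNTC, 27.6, 26.3 and 28.2 in siNTC plus TVA, 24.4, 25.4 and 25.6 in siCreb1 and 22.97, 24.1 and 22.7 in siCreb1 plus TVA. For both genes siNTC plus TVA was above all other libraries, and siCreb1 plus TVA overlapped with siNTC. *Pttg1* (securin, which restrains separase until anaphase) was at 8.94, 9.43 and 10.1 FPKM in siNTC, 8.66, 8.65 and 8.19 in siNTC plus TVA, 7.94, 8.19 and 8.03 in siCreb1 and 8.48, 7.61 and 9.1 in siCreb1 plus TVA. Its siNTC libraries were the highest on average, above all siCreb1 and all siNTC plus TVA libraries, and 1 library of siCreb1 plus TVA reached into their range. TVA in siNTC cells raised *Cdc20* by 0.30 (standard error 0.054, adjusted p = 0.00674), *Ube2c* by 0.36 (standard error 0.049, adjusted p = 0.0013) and *Espl1* (separase) by 0.49 (standard error 0.040, adjusted p = 4.67e-05), while *Pttg1* had −0.14 (95% interval −0.27 to −0.011), an adjusted p of 0.199. Knockdown alone lowered *Pttg1*, at −0.21 (standard error 0.058, adjusted p = 0.0376) and raised its partner *Espl1* by 0.43 (standard error 0.040, adjusted p = 0.000152). In siCreb1 against siNTC with TVA *Cdc20* was lower, at −0.34 (standard error 0.054, adjusted p = 0.00493). Rescaled to TPM, neither *Pttg1* nor *Smc4* was called lower with knockdown alone (44 genes higher, 0 lower), where 1205 of all genes tested were called. On that scaling the median of all genes tested was 0.043 in that comparison, against −0.0011 on FPKM.

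Presence of CHR letters did not sort the genes by size of response. The 35 genes with CHR letters had a median TVA effect of 0.44 in siNTC cells, 0.036 in siCreb1 cells and 0.24 with knockdown alone. The 16 with a promoter but without these letters had 0.46, 0.033 and 0.27. Of the 4 genes with a full CRE, *Ndc80*, *Cenpe*, *Cenpw* and *Ncaph*, all rose with TVA in siNTC cells, as did 43 of the 47 with a promoter but no full CRE. *Ndc80*, *Cenpe* and *Ncaph* also rose with knockdown alone (33 of the 47 were called there), *Cenpw* having 0.21 (adjusted p = 0.108). The 17 genes with the CRE core TGACG had medians of 0.51 for TVA in siNTC cells, 0.039 in siCreb1 cells and 0.28 with knockdown alone, and the 34 without it 0.42, 0.035 and 0.24. All 17 and 30 of the 34 were called for TVA in siNTC cells. The difference between these sets was not tested.

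S phase genes gave the same order of groups as the mitotic genes. The list held 50 genes, most of them of replication origins, the replicative helicase, polymerases, clamp loading and nucleotide supply, and all 50 were tested. Its other genes included *Ccne1*, *Ccne2*, *Chaf1a*, *Chaf1b*, *Slbp*, *Clspn*, *Dtl*, *Uhrf1* and *Ung*. Their mean log2(FPKM + 1) was 3.40 ± 0.0088 (SD, n = 3) in siNTC, 3.79 ± 0.0072 in siNTC plus TVA, 3.64 ± 0.0056 in siCreb1 and 3.69 ± 0.017 in siCreb1 plus TVA. With TVA in siNTC cells 39 of 50 rose and 0 fell (54 of 60 mitotic genes), with medians of 0.38 for S phase and 0.44 for mitotic genes. In siCreb1 cells neither list had a call, and the medians were 0.052 and 0.038. With knockdown alone 33 of 50 S phase genes rose, with a median of 0.22 against 0.26. With TVA in both groups 11 of 50 were lower, with a median of −0.10 against −0.16. The interaction was called negative for 27 of 50 (42 of 60 mitotic genes), with medians of −0.34 and −0.43.

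The mitotic median minus the S phase median was 0.056 for TVA in siNTC cells, −0.014 for TVA in siCreb1 cells, 0.039 for knockdown alone, −0.055 for knockdown with TVA and −0.085 for the interaction. Between libraries of a group the mitotic minus S phase median level had a pooled SD of 0.067. That is the spread of single libraries and not the error of a difference between groups, so it does not decide which differences exceed it. None of the 5 differences was tested. Leaving out 1 library at a time moved the first to between 0.034 (without replicate 2 of siNTC plus TVA) and 0.078 (without replicate 3 of that group). The second moved to between −0.033 (without replicate 2 of siCreb1) and −0.0063 (without replicate 3 of siCreb1 plus TVA). The third moved to between 0.016 (without replicate 3 of siNTC) and 0.070 (without replicate 2 of siCreb1). The interaction ran from −0.10 (without replicate 1 of siNTC) to −0.055 (without replicate 3 of siNTC plus TVA). For TVA in siNTC cells a pseudocount of 0.1 gave 0.092 and limma-voom 0.095. Per library, the S phase mean minus the mitotic mean was −0.067 ± 0.0066 (SD, n = 3) in siNTC, −0.099 ± 0.0046 in siNTC plus TVA, −0.076 ± 0.016 in siCreb1 and −0.057 ± 0.011 in siCreb1 plus TVA. The siNTC plus TVA libraries, at −0.10 to −0.095, lay below all others. This order did not hold with another S phase list, the S markers in use for scoring single cells, of which 42 were tested. These markers share many genes with the first list, *Clspn* among them, and are not independent of it. Their mean minus the mitotic mean was −0.26 ± 0.017 in siNTC and −0.26 ± 0.0067 in siNTC plus TVA, with overlapping libraries (−0.27 to −0.24 and −0.27 to −0.25). Against these markers the difference of medians was 0.019 for TVA in siNTC cells.

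The S phase genes at the ends of the range were *Clspn* (claspin, checkpoint at forks) at 0.76 (standard error 0.053, adjusted p = 1.81e-05), *Rrm2* (ribonucleotide reductase) at 0.70 (standard error 0.030, adjusted p = 6.51e-07) and *Lig1* (DNA ligase) at 0.68 (standard error 0.054, adjusted p = 3.98e-05) for TVA in siNTC cells. At the other end *Pola2* had 0.063 (adjusted p = 0.0939), *Rpa1* 0.065 (adjusted p = 0.265) and *Gins4* 0.086 (adjusted p = 0.672). With knockdown alone *Clspn* again led, at 0.59 (adjusted p = 0.000116).

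**Figure D5:**
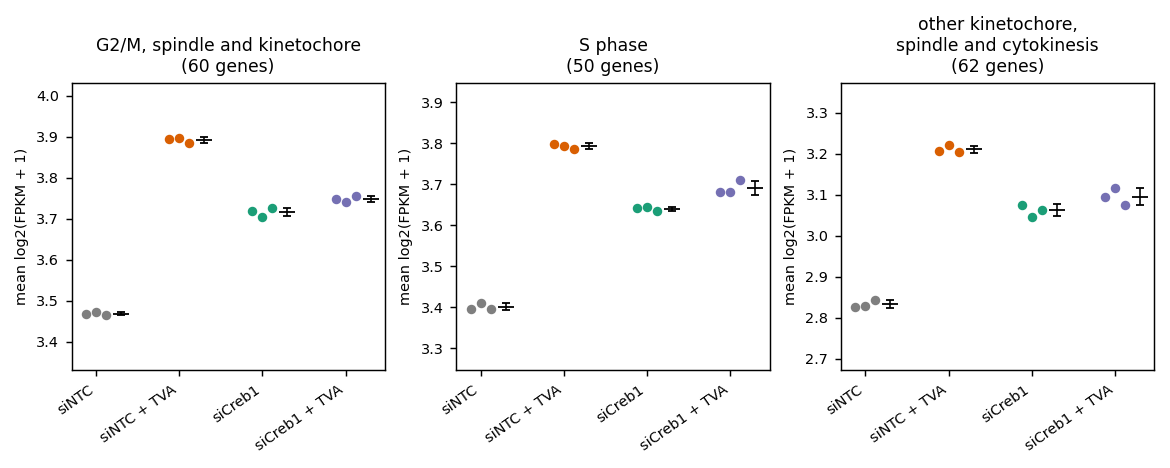
Mean log2(FPKM + 1) of 3 gene lists in each of the 12 libraries (points) with mean ± SD of 3 libraries, on axes of equal span that do not start at 0. The order of the groups is the same for the 60 mitotic, 50 S phase and 62 other kinetochore, spindle and cytokinesis genes, with siNTC plus TVA highest and siNTC lowest.

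Of the wider mitotic machinery, 62 of 63 other kinetochore, spindle and cytokinesis genes were tested. TVA raised 50 of them in siNTC cells and lowered 0, with a median of 0.38, all 62 having a value above 0. In siCreb1 cells 0 were called, with a median of 0.029. Knockdown alone raised 35 and lowered 1, *Cenpq* at −0.15 (adjusted p = 0.0215). With TVA in both groups 13 were lower and 0 higher, and the interaction was negative for 27 and positive for 0. The largest rises with TVA in siNTC cells were those of the mitotic kinase *Pbk* at 0.68 (adjusted p = 0.00238), the centromere gene *Cenpi* at 0.65 (adjusted p = 0.000292) and the checkpoint ATPase *Trip13* at 0.62 (adjusted p = 0.00365).

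Subunits of APC/C, the ubiquitin ligase on which CDC20 and UBE2C act, moved less. Of 16 listed, 3 rose with TVA in siNTC cells, the APC/C inhibitor *Fbxo5* (EMI1) by 0.53 (adjusted p = 3.98e-05) and the subunits *Cdc27* and *Anapc5* by 0.18 (adjusted p = 0.0377) and 0.12 (adjusted p = 0.0273), with a median over the 16 of 0.044. In cohesin, the ring that holds sister chromatids, 6 of 13 rose and 1 fell. The acetyltransferase *Esco2* and sororin, *Cdca5*, led at 0.60 (adjusted p = 0.000104) and 0.53 (adjusted p = 5.61e-05), while the loader *Mau2* fell, at −0.18 (adjusted p = 0.0127). Of the 5 genes of the MuvB core, which binds the CHR, only *Rbbp4* rose, at 0.16 (adjusted p = 0.00934). In siCreb1 cells no gene of these 3 lists was called with TVA.

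Among 18 genes linked to quiescence and cell cycle exit, of which 16 were tested, TVA in siNTC cells lowered 4 and raised 1. Those lowered were *Mxd4*, a MYC antagonist, at −0.21 (adjusted p = 0.00912), the antiproliferative gene *Btg1* at −0.20 (adjusted p = 0.000353), the CDK inhibitor *Cdkn1b* (p27) at −0.15 (adjusted p = 0.0112) and *Foxo3* at −0.13 (adjusted p = 0.0338). *Cdkn2c* (p18), another CDK inhibitor, rose at 0.42 (adjusted p = 0.000872). Over all genes tested, 2.88% were lower and 4.49% higher in this comparison. In siCreb1 cells TVA gave 0 calls among the 16 genes. With knockdown alone 6 of the 16 were lower, among them *Klf2* (a quiescence factor of T cells) at −0.53 (adjusted p = 0.000349) and *Btg2* at −0.30 (adjusted p = 0.000152), and *Cdkn2c* was higher at 0.22 (adjusted p = 0.0221). Over all genes tested, 7.21% were lower and 6.52% higher there. With TVA in both groups 6 of the 16 were lower in siCreb1 cells and 0 higher, against 5.51% and 4.64% of all genes tested.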

How the data were processed

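RNA-seq libraries of 12 samples were made with the SMARTER mRNA kit per the labels. The authors deposited FPKM values, separately for each library, on GRCm38 per the submitters' processing notes; the aligner, counter and strand setting are not given in the sources used here. FPKM multiplied by gene length gave whole reads (within 0.02) for at least 99.995% of genes above 0, and hence the depth. Genes with a mean of at least 1 FPKM were tested on log2(FPKM + 1), which understates changes of low genes, with limma 3.58.1 (trend, R 4.3.3, data.table, version 1.17.8) in a single fit of 4 groups, with Benjamini-Hochberg adjusted p under 0.05 as the threshold. A list's median or count carries no test. The 60 genes and all lists were chosen with earlier results of these data known. All 60 could be named, and values of every library were given for 25 genes set by the rule plus the 3 largest called rises and falls per comparison. Those of *Cdc25c* were added outside that rule. The fits were also run on simulated reads, with the same added spread for every gene and changes in siNTC plus TVA only. That run checks the code and does not measure the spread between these libraries. Promoters are from RefSeq (GRCm38.p6), 1 per gene, nearest the listed start. Figures used Python 3.11.15, pandas 2.3.3, numpy 2.4.6 and matplotlib 3.10.9. Alternatives were 9 changes of processing (8 for the interaction), another S phase list that shares genes with the first, and leaving out each of the 12 libraries.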

Additional observations from a re-analysis of the deposited data

Results flagged for a closer look

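For 42 of the 60 mitotic genes the TVA effect differed between siCreb1 and siNTC cells by the test of that difference itself, the interaction term of limma (Benjamini-Hochberg adjusted p under 0.05 over 11550 genes), and in all 42 it was smaller in siCreb1 cells. Values are log2 fold changes of TVA in siCreb1 cells minus those in siNTC cells, on the log2(FPKM + 1) scale with 3 libraries per group. The adjusted p-values of the 42 ran from 0.000122 (*Top2a*) to 0.0441 (*Ttk*). *Foxm1*, the transcription factor, had −0.47. Of the cyclins and their kinase, *Cdk1* had −0.51, *Ccna2* −0.44, *Ccnb2* −0.40, *Ccnb1* −0.39 and the phosphatase *Cdc25b* −0.26. Among the polo and aurora kinases and the passenger complex, *Aurkb* had −0.61, *Birc5* −0.46, *Plk1* −0.43, *Cdca8* −0.42 and *Incenp* −0.34. In the checkpoint, *Bub1* had −0.63, *Mad2l1* −0.51, *Ttk* −0.49 and *Bub1b* −0.47. The NDC80 complex gave −0.58 for *Spc24*, −0.56 for *Spc25*, −0.49 for *Ndc80* and −0.41 for *Nuf2*. At the centromere *Cenpw* had −0.55, *Cenpm* −0.50, *Cenpn* −0.49, *Cenpe* −0.45 and *Cenpf* −0.36.

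Kinesins with such a difference were *Kif11* at −0.57, *Kif2c* at −0.51, *Kif15* at −0.50, *Kif4* at −0.36 and *Kif20a* at −0.32. On the spindle and in cytokinesis *Tpx2* had −0.45, *Nusap1* −0.44, *Anln* −0.37 and *Racgap1* −0.28. Of the chromosome structure genes, *Top2a* had −0.58, *Ncaph* −0.55, *Mki67* −0.49, *Ncapg* −0.48, *Smc2* −0.44 and *Ncapd2* −0.40. In the anaphase group *Ube2c* had −0.46, *Espl1* −0.43 and *Cdc20* −0.40. Groups of 3 libraries were too small to test single libraries as outliers.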

How the results depend on the processing

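No count or median of the 60 genes changed direction under the 9 changes of processing run for each (8 for the interaction), nor did the mitotic minus S phase medians under these and another S phase list. Single genes gave 6299 values under the changes of processing and under leaving out each of the 12 libraries. Most settings had values of 61 genes, so these are not of the mitotic genes alone. Of the 6299 values, 5944 stayed on their side of the threshold, 276 lost and 79 gained a call, and 0 reversed. The median TVA effect in siNTC cells was 0.51 with a pseudocount of 0.1, 0.49 on TPM and 0.51 with limma-voom, and that of the interaction −0.46 with a pseudocount of 0.1 and −0.47 with limma-voom. With knockdown alone the median was 0.32 on TPM. In siCreb1 against siNTC with TVA the calls fell to 11 when all 29700 genes above 0 were tested and to 5 on TPM. Over all genes tested, 683 and 740 were called in these settings, against 1172 in the main fit. The median of the 60 genes was −0.11 on TPM, where the median of all genes tested was 0.037 (−0.012 on FPKM). A fit of only the libraries compared called 45 of the 60 genes for TVA in siNTC cells, against 54 in the main fit. For knockdown alone it called 34, against 44. Over all genes tested it called 368 and 817 in these comparisons, against 852 and 1586. It called 17 for knockdown with TVA, against 19, and 0 for TVA in siCreb1 cells (902 and 39 of all genes tested). Leaving out 1 library at a time gave 52 to 55 calls for TVA in siNTC cells, 0 for TVA in siCreb1 cells, 40 to 44 for knockdown alone, 8 (without replicate 1 of siCreb1 plus TVA) to 21 for knockdown with TVA, and 33 to 40 for the interaction. The shares of all genes called with a library left out are not given here.

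Same-numbered libraries of the groups did not deviate together (correlations from −0.059 to 0.060 over 6 pairs of groups), so the replicate numbers were taken as names only. A fit with a replicate block gave calls of 53 for TVA in siNTC cells, 0 for TVA in siCreb1 cells, 44 for knockdown alone, 17 for knockdown with TVA and 37 for the interaction. Over all 11550 genes tested it called 687, 34, 1385, 973 and 195 in the same order. Depth limited *Cenpp*, *Cenpk* and *Cdc25c* most, which had 52, 100 and 115 reads in their lowest library.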
